A study of Rattus norvegicus with 6 samples.

Results

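In diabetic rat left ventricle, the transcripts for the main cardiac troponins and for alpha-tropomyosin gave no difference from normal that passed the test, while the brighter probe set for the cytoskeletal tropomyosin Tpm4 fell 1.93-fold. Of all tested probe sets 2.88% passed, 1.38% with diabetic hearts lower. The Tpm4 call was lost in most fits that left out a heart, and with no filter on dim probe sets. The other Tpm4 probe set and the single one for Tpm2, the beta-tropomyosin, were also lower in every diabetic heart than in every normal heart, without passing the threshold. Such a separation, with diabetic hearts lower, was found for 13.6% of all tested probe sets. The genes described here encode the calcium switch of the thin filament and its tropomyosin strand. They were taken as every probe set whose array annotation names Tnnt2, Tnnt3, Tnni1, Tnni3, Tnnc1, Tpm1, Tpm2, Tpm3 or Tpm4, which gave 9 of the 10411 genes named on the array and 27 of its 15866 probe sets, control probe sets left out.

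RNA came from the left ventricle of 3 diabetic rats and 3 normal rats, each measured on 1 single-colour Affymetrix array. The labels give no strain, sex, age, way of inducing diabetes, duration or treatment for either group, and no scan or extraction batch, so such differences between the groups could not be examined. The comparison asks which transcripts differ in the diabetic heart. Each value is a signal intensity in arbitrary units on a linear scale, and since probe sets bind with different efficiency their signals were compared between hearts and not between genes.

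In the sarcomere, tropomyosin runs along actin and blocks myosin binding at rest. Troponin C binds calcium, troponin I holds the filament in its inhibited state until calcium arrives, and troponin T ties the complex to tropomyosin. Troponin I and troponin T have cardiac and skeletal forms from separate genes. The fetal heart uses the slow skeletal troponin I, Tnni1, and replaces it with the cardiac form, Tnni3, around and after birth, and beta-tropomyosin is more abundant in the fetal than in the adult rodent ventricle. A return of fetal sarcomere forms is a known feature of stressed adult hearts. Tpm1 and Tpm3 also give rise to shorter cytoskeletal forms in most cell types, and Tpm4 makes a cytoskeletal form.

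The hearts carried the markers of heart muscle. All 7 cardiomyocyte markers on the array lay above the filter, with group means from 1941 to 47118. Of 12 skeletal muscle markers 9 lay below it, and none of them was listed at 0. The trimmed mean was 500.2 on each of the 6 arrays and medians ran from 180.3 to 191.3. Across tested probe sets, arrays of the same group correlated at 0.967 to 0.974 and arrays of different groups at 0.937 to 0.959.

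Of the 27 probe sets, 19 had a mean log2 signal above the 40th percentile and were tested, covering 8 of the 9 genes, and 8 were too dim for a test, among them the only one for Tnnt3. Log2 fold changes are of signal + 16 and understate the change of dim probe sets. Only 1 of the 19 passed a Benjamini-Hochberg adjusted p of 0.05 in limma, where 2.88% of all 9519 tested probe sets passed. It lay lower in diabetic hearts, as did 1.38% of all tested probe sets. Separation of all diabetic from all normal hearts was seen at 4 of the 19, with 3 lower in diabetic hearts and 1 higher, against 25.7% of all tested probe sets in either direction (13.6% lower and 12.1% higher). The median log2 fold change of the 19 was -0.16, against -0.01 over all tested probe sets, and 17 of them lay below 0, against 52.0% of all tested probe sets. Several of these probe sets share a gene or transcript sequence, so they are not independent.

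**Figure D1:**
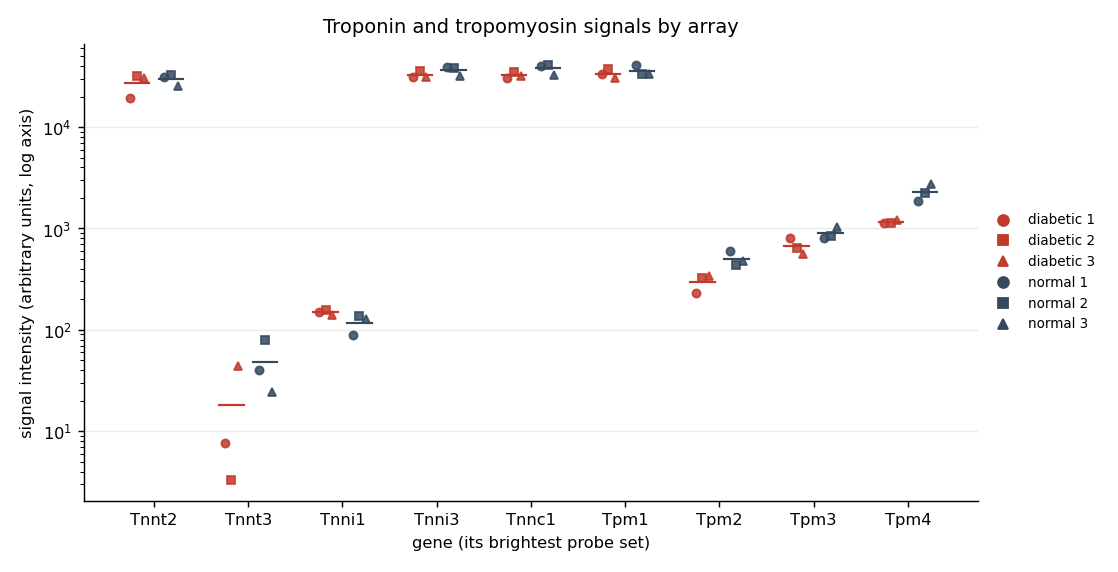
Signal intensity on a log axis in each of the 6 arrays, for the brightest probe set of each of the 9 genes; red points are diabetic and dark points normal hearts, and horizontal lines are group means. Tnnt2, Tnni3, Tnnc1 and Tpm1 overlap between groups, whereas Tpm2 and Tpm4 are lower in every diabetic heart than in every normal heart.

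Cardiac troponin T, Tnnt2, which anchors the troponin complex to tropomyosin, had signals of 19340.2, 31752 and 30805 in diabetic hearts 1, 2 and 3, against 31266, 32991 and 25321 in normal hearts 1, 2 and 3 at its bright probe set (1367592_at). The groups overlapped, and diabetic 1 was the lowest of the 6. The mean was 27299 ± 6909 in diabetic hearts and 29859 ± 4024 in normal hearts (SD, n = 3 each), and the log2 fold change was -0.16 ± 0.22 (standard error, adjusted p = 0.749 in limma) with a 95% interval of -0.64 to 0.33. Without diabetic 1 its sign turned, to 0.08. Its second probe set (1390061_at) was too dim for the test. Signals there were 127.7, 128.6 and 108.2 in diabetic hearts, against 73.7, 83.8 and 62.3 in normal hearts, so that every diabetic heart was higher. The bright and the dim probe set thus did not move together. Embryonic and adult splice forms of cardiac troponin T cannot be told apart from these gene-level values.

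Tnnt3, the fast skeletal troponin T, was near the low end of the scale, with a mean over the 6 hearts of 33.2 at its only probe set. It had 7.6, 3.3 and 43.6 in diabetic hearts, against 40.6, 79.8 and 24.6 in normal hearts, which overlapped. Tnnt1, the slow skeletal form, was also below the filter, at 41.9 ± 32.0 in diabetic hearts and 24.0 ± 14.4 in normal hearts.

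Among the troponin I genes, the cardiac form Tnni3 gave 31461, 36001 and 31469 in diabetic hearts, against 39350, 38005 and 31720 in normal hearts. Diabetic 2 stood above normal 3, so the groups overlapped. Tnni3 averaged 32977 ± 2619 in diabetic hearts and 36358 ± 4073 in normal hearts, with a log2 fold change of -0.14 ± 0.15 (limma adjusted p = 0.675, 95% interval -0.48 to 0.21).

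Tnni1, the slow skeletal form of the fetal heart, was dim. Its brighter probe set (1386873_at), at the 42.6th percentile and just above the filter, had 151.6, 158.6 and 139.9 in diabetic hearts, against 89.4, 135.7 and 127.6 in normal hearts. Every diabetic heart was above every normal heart, but the closest pair, diabetic 3 and normal 2, lay 139.9 against 135.7. The log2 fold change was 0.33 ± 0.17 and did not pass (limma adjusted p = 0.330, 95% interval -0.06 to 0.72). Without normal 1, the lowest of the normal hearts, it was 0.168. The other Tnni1 probe set (1371339_at) was below the filter and gave 161.9, 53.7 and 87.7 in diabetic hearts, against 174.6, 78.9 and 87.7 in normal hearts, with no separation of the groups. The probe sets for Tnni1 therefore gave differences of opposite sign, 0.33 and -0.18 on the log2 scale.

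Tnnc1, the calcium-binding subunit that cardiac and slow skeletal muscle share, had 30511, 35174 and 32059 in diabetic hearts, against 40265, 41253 and 32580 in normal hearts. Normal 3 fell within the diabetic range. The means were 32581 ± 2375 in diabetic hearts and 38032 ± 4748 in normal hearts, a log2 fold change of -0.22 ± 0.15 (limma adjusted p = 0.482, 95% interval -0.57 to 0.13). As folds, these intervals ran from 0.675-fold to 1.10-fold for Tnnc1 and from 0.717-fold to 1.15-fold for Tnni3.

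Tpm1, the alpha-tropomyosin that is the main form of adult rodent heart, had 6 probe sets, 4 of them tested. The brightest (1368724_a_at) gave 33059, 37101 and 30552 in diabetic hearts, against 41049, 33387 and 33717 in normal hearts, a log2 fold change of -0.10 ± 0.16 (limma adjusted p = 0.781, 95% interval -0.45 to 0.25). The other bright ones, 1370288_a_at and 1371241_x_at, lay at -0.05 and -0.06. These 3 bright probe sets overlapped between groups. The suffix a marks a probe set that detects several transcripts of the same gene, s one shared by related transcripts, and x one with probes that can also bind other sequences, so these values may hold several Tpm1 forms or related genes. A much dimmer probe set (1370287_a_at) had 156.1, 236.2 and 270.6 in diabetic hearts, against 261.2, 254.6 and 272.5 in normal hearts, and its log2 fold change of -0.27 ± 0.20 did not pass (limma adjusted p = 0.506). Of the others, both below the filter, 1370513_at had 49.6, 37.6 and 15.0 in diabetic hearts, against 8.8, 17.8 and 3.5 in normal hearts, and 1371240_at ranged from 9.7 to 58.6 in diabetic hearts and from 8.6 to 91.4 in normal hearts.

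**Figure D2:**
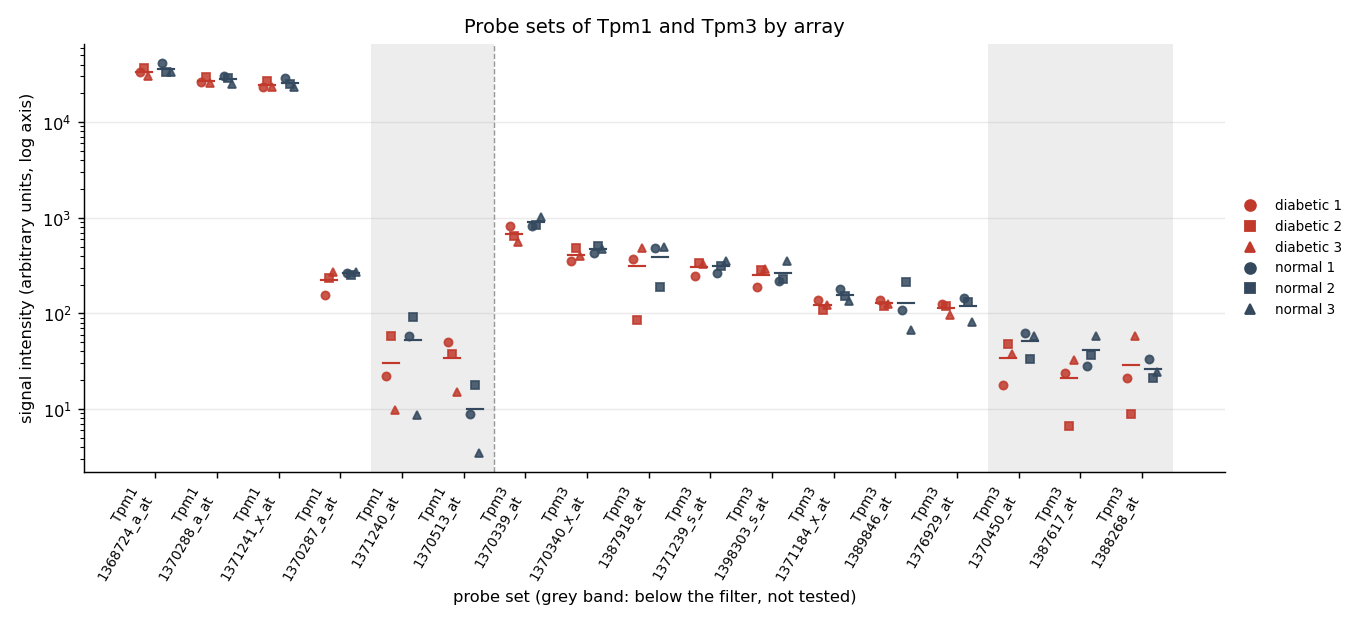
Signal intensity on a log axis for the 6 probe sets of Tpm1 (left of the dashed line) and the 11 of Tpm3, with diabetic hearts in red, normal hearts dark, group means as lines and probe sets below the filter on grey. The signals of one gene differ widely between its probe sets, from 22.1 to 34811 for Tpm1 means over the 6 hearts, while the groups overlap at each of the 12 probe sets that were tested.

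Tpm3 makes the slow skeletal alpha-tropomyosin and short cytoskeletal forms. Its 11 probe sets had means over the 6 hearts from 27.8 to 783, and 8 were tested. None passed, with log2 fold changes from -0.46 to 0.11, 7 of them below 0. The brightest (1370339_at) had 814, 644 and 563 in diabetic hearts, against 811, 842 and 1027 in normal hearts, and only diabetic 1 reached the normal range. Its log2 fold change was -0.41 ± 0.18 (limma adjusted p = 0.250). The most variable one (1387918_at) had 373.5, 85.5 and 485.6 in diabetic hearts, against 477.7, 187.2 and 498.5 in normal hearts, so that diabetic 2 and normal 2 were the low hearts of their groups, and its log2 fold change was -0.46 ± 0.57 (standard error). Without diabetic 2 it was 0.248. The probe sets 1371239_s_at and 1398303_s_at, which detect related transcripts, lay at -0.03 and -0.06, and 1371184_x_at at -0.29. The 3 below the filter ran from 6.7 to 57.8 in diabetic hearts and from 20.9 to 62.1 in normal hearts, with overlap at each.

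Tpm2, the beta-tropomyosin of skeletal and smooth muscle and of the fetal heart, had 232.6, 324.4 and 340.8 in diabetic hearts, against 593.1, 437.3 and 473.5 in normal hearts at its only probe set. All diabetic hearts lay below all normal hearts. It averaged 299 ± 58.3 in diabetic hearts and 501 ± 81.5 in normal hearts, 1.65-fold lower on the log2 scale of the fit (log2 -0.72 ± 0.19, 95% interval -1.15 to -0.29), and missed the threshold at an adjusted p of 0.0817 in limma. With a filter at the 60th percentile in place of the 40th it passed, at an adjusted p of 0.0425.

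Tpm4, a tropomyosin of the actin cytoskeleton in non-muscle cells, gave the only call. Its brighter probe set (1371653_at) had 1127, 1128 and 1225 in diabetic hearts, against 1872, 2216 and 2739 in normal hearts. The diabetic hearts lay close together and the normal hearts were spread more widely above them. It fell to 1160.0 ± 56.3 in diabetic hearts, against 2276 ± 436 in normal hearts (SD, n = 3 each), a log2 fold change of -0.95 ± 0.17 (limma adjusted p = 0.0240, 95% interval -1.33 to -0.56). The other probe set (1368838_at) had 738, 783 and 702 in diabetic hearts, against 1143, 948 and 1400 in normal hearts, again with no overlap. Its log2 fold change of -0.62 ± 0.17 (95% interval -1.01 to -0.24) did not pass, at a limma adjusted p of 0.0899. The call at the brighter probe set was lost without diabetic 1 (limma adjusted p = 0.0652), diabetic 2 (0.0822), diabetic 3 (0.0629), normal 2 (0.0667) or normal 3 (0.0795), with the log2 fold change between -1.08 and -0.805 in every fit that left out a heart, and it was 0.133 with no filter on dim probe sets.

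**Figure D3:**
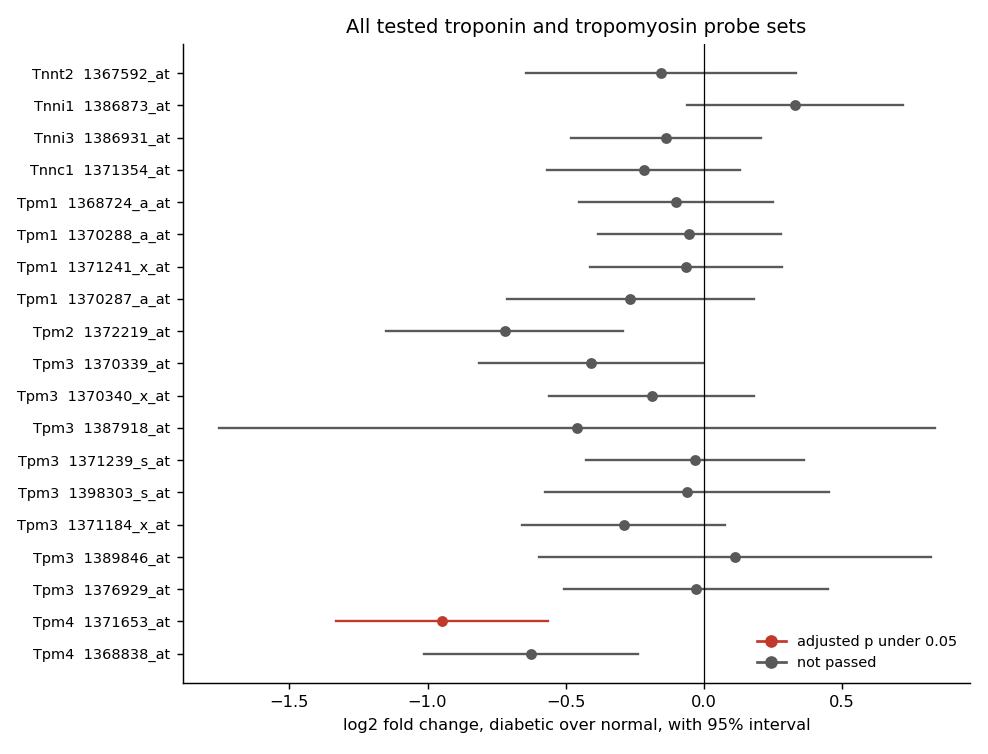
Log2 fold change, diabetic over normal, with its 95% interval from limma for the 19 tested probe sets; red marks an adjusted p under 0.05 and grey one that did not pass. Only 1371653_at of Tpm4 is red, at -0.95, and the intervals of 1368838_at (Tpm4), 1372219_at (Tpm2) and 1370339_at (Tpm3) also lie below 0.

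The 250 bases before the annotated start of Tpm4 and Tpm2, the genes with lower signals, and of Tpm1, whose bright probe sets overlapped, are shown as a view of the promoters of tropomyosin genes that gave different values. They come from RefSeq (build GRCr8). In the promoter table used here 7 of the 9 genes were matched, and the others are Tnnt3 and Tnnc1. Tpm4 lies at chr16:17732484-17732733, Tpm2 at chr5:62575727-62575976 and Tpm1 at chr8:76543416-76543665, all on the minus strand, and each is written 5′ to 3′. Capitals mark matches on either strand to the GC box (GGGCGG), bound by Sp1-type factors, and to the MCAT element (CATTCC), bound by TEAD factors in muscle genes.
Tpm4: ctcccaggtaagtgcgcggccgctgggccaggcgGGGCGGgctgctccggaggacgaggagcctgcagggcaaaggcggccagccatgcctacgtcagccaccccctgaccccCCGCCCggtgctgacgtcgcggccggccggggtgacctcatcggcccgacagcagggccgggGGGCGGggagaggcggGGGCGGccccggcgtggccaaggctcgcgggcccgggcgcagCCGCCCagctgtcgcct
Tpm2: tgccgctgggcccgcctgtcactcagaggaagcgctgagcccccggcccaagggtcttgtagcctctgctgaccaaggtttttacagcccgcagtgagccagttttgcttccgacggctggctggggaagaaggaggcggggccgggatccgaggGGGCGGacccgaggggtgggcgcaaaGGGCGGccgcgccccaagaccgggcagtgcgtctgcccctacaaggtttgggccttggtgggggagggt
Tpm1: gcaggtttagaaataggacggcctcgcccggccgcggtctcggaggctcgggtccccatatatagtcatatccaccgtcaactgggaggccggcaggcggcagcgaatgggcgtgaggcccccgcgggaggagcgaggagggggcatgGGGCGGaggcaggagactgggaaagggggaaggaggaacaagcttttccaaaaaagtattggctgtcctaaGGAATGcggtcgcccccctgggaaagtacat

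The Tpm4 window held 5 GC boxes, Tpm2 2 and Tpm1 1, where 30.5% of all 33469 promoter windows of that length held at least 1. The 3 annotated starts of Tpm3, of which the last 2 have overlapping windows, held 0, 4 and 3 of them, and the troponin windows none. Of the 3 windows printed, that of Tpm1 held an MCAT element, starting 31 bases before the start site, and 12.1% of all windows held one. Tnnt2 held an MCAT element too, 83 bases before the first of its annotated starts. None of the windows of these genes matched the search pattern for the CArG box, the site of serum response factor, which 1.5% of all windows matched. None held the letters TATAAA, found in 12.9%. GC content was 79.2% for Tpm4, 68.8% for Tpm2 and 62.4% for Tpm1, against a median of 51.2% over all windows. A match says only that the letters are there, and no match only that they are not.

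Ratios between isoforms were taken within each heart, from the brightest probe set of each gene, and are given on the log2 scale relative to the mean of the normal hearts, since the level of a ratio between probe sets has no meaning. With 3 hearts against 3, the two-sided exact permutation test cannot go below 0.1. The fetal over mature troponin I ratio, Tnni1 over Tnni3, was 0.55, 0.41 and 0.44 in diabetic hearts, against -0.44, 0.13 and 0.31 in normal hearts. It was higher in every diabetic heart, by 0.47 on average (exact permutation p = 0.1), but by 0.245 without normal 1, and with the other Tnni1 probe set the change was -0.04.

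Beta over alpha tropomyosin, Tpm2 over Tpm1, moved the other way, at -0.93, -0.64 and -0.29 in diabetic hearts, against 0.05, -0.07 and 0.02 in normal hearts. The mean change was -0.62 (SD 0.32 in diabetic and 0.07 in normal hearts, n = 3 each, exact permutation p = 0.1), and with the 5 other Tpm1 probe sets it lay between -1.63 and -0.25. The fetal over mature ratios of troponin I and of tropomyosin therefore had changes of opposite sign at these probe sets. The troponin I value rests on a dim Tnni1 probe set just above the filter, and with the other Tnni1 probe set the change was -0.04. Tpm4 over Tpm1 was -0.87, -1.03 and -0.64 in diabetic hearts, against -0.46, 0.08 and 0.37 in normal hearts, a change of -0.85 (exact permutation p = 0.1) that kept its sign in all 11 other pairs of probe sets. Tpm3 over Tpm1 overlapped between groups, with a change of -0.31 (exact permutation p = 0.2) that was -0.158 without normal 3, and of 65 other pairs 35 lay below 0 and 30 above. Tnnt3 over Tnnt2 also overlapped, with a change of -0.85 (exact permutation p = 0.3). This value rests on the dim Tnnt3 signal: it was -0.406 without diabetic 2, -1.747 with a pseudocount of 1 and -0.299 with a pseudocount of 64. Of the 5 ratios 3 share Tpm1 and are not independent, and adjusted over the 5 by Benjamini-Hochberg the lowest exact p-values became 0.167.

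**Figure D4:**
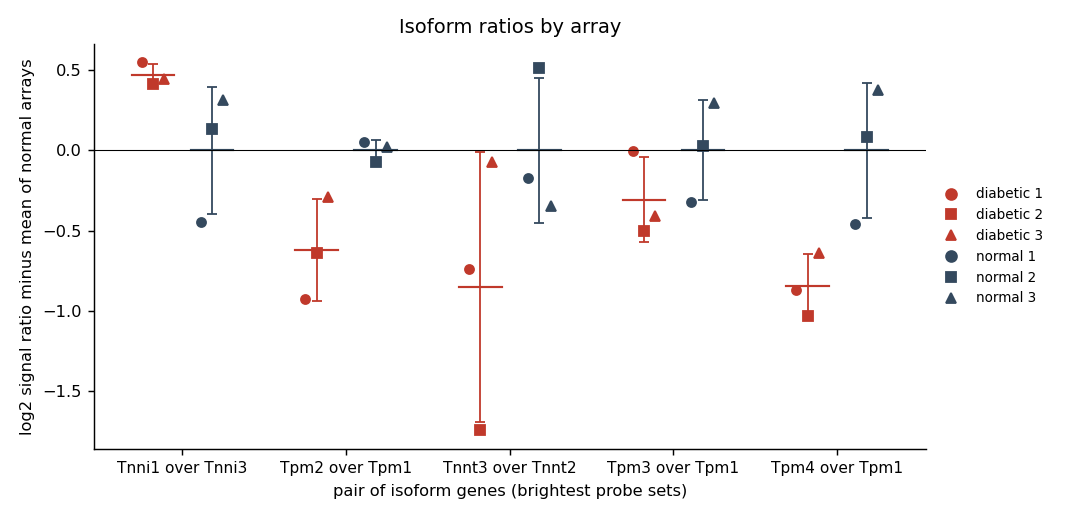
Log2 ratio of the signals of 2 isoform genes in each heart, minus the mean of the normal hearts; diabetic hearts are red and normal hearts dark, with group means as lines and SD as bars (n = 3 each). Tnni1 over Tnni3 is higher and Tpm2 over Tpm1 and Tpm4 over Tpm1 are lower in every diabetic heart, while the groups overlap for Tnnt3 over Tnnt2 and Tpm3 over Tpm1.

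The other thin filament genes that were tested gave no call. The list of 16 partners held skeletal troponins, muscle actins, tropomodulins, leiomodins, nebulins, capping proteins and other actin-binding proteins. By name 13 were on the array, and Actc1, Lmod2 and Nebl were not. Of the 13, 10 were tested at their brightest probe set. None passed in limma, 1 had an unadjusted p under 0.05, and the median log2 fold change was -0.17. That one, named after its value was seen, was Tmod1, which caps the pointed end of the thin filament and binds tropomyosin, at 2575 ± 223 in diabetic hearts and 3466 ± 234 in normal hearts (log2 -0.43 ± 0.14, limma adjusted p = 0.145). Of 11 tested kinases and phosphatases that can act on troponin, none passed (2 with an unadjusted p under 0.05, median -0.13). Of 12 tested splicing regulators of troponin T and tropomyosin, none passed (1 with an unadjusted p under 0.05, median -0.09). Of 11 tested transcription regulators of sarcomere genes, none passed (3 with an unadjusted p under 0.05, median 0.09). Unadjusted p-values under 0.05 were found for 19.9% of all tested probe sets.

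Since Tpm2 and Tpm4 are also made by cells other than cardiomyocytes, marker lists are given beside them. In whole ventricle, fewer cells of a type and less RNA per cell cannot be told apart. Of 8 fibroblast markers 6 were tested and 4 fell, with a median log2 fold change of -1.34, and their summed signal ran from 20541 to 21826 in diabetic hearts and from 32052 to 36899 in normal hearts. The 4 were the collagens Col3a1 (log2 -1.97 ± 0.18, limma adjusted p = 0.00184), Col1a2 (-1.44 ± 0.19) and Col1a1 (-1.24 ± 0.21) and the collagen-binding Lum (-1.64 ± 0.21), while Dcn, also a fibroblast matrix gene and the brightest of the list, lay at -0.01 ± 0.16. The call for Col1a1 was lost without diabetic 3 (limma adjusted p = 0.0517), normal 1 (0.0536) or normal 3 (0.0704). With no filter on dim probe sets Col1a1, Col1a2 and Lum did not pass (limma adjusted p of 0.117, 0.0679 and 0.0688). Of 9 smooth muscle markers 7 were tested and none passed in limma (1 with an unadjusted p under 0.05, median -0.18). Their summed signal was 15566 to 16566 in diabetic hearts and 13367 to 14654 in normal hearts, and most of it was Des, an intermediate filament protein that cardiomyocytes also make, at 11569 ± 529 in diabetic hearts and 8945 ± 241 in normal hearts. The sum therefore mostly follows Des. By log2 fold change 5 of the 7 tested markers lay below 0 and 2 above. Tagln was at -0.71 ± 0.32, with overlap between groups, and Des at 0.37 ± 0.13. No marker of either list was at 0 on any array. The part of these cell types in the Tpm2 and Tpm4 values was not tested.

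Of 7 tested cardiomyocyte markers, Myh6, the alpha-myosin heavy chain, fell (log2 -1.55 ± 0.29, limma adjusted p = 0.0281), and the median of the list was -0.25. The Myh6 call was lost without diabetic 1 (limma adjusted p = 0.0618), normal 1 (0.0769), normal 2 (0.0757) or normal 3 (0.0594), and with no filter (0.161). Of 5 tested endothelial markers Tie1, a receptor tyrosine kinase, fell (log2 -0.94 ± 0.17, limma adjusted p = 0.0222), and the median was 0.26. The Tie1 call was lost without diabetic 2 (limma adjusted p = 0.0799), diabetic 3 (0.0739), normal 2 (0.0686) or normal 3 (0.0811), with no filter (0.125) and with the replicate number as a block (0.0518). Pecam1, an endothelial adhesion molecule of the same list, did not pass and was higher in every diabetic heart, at 895 ± 73.7 in diabetic hearts and 573 ± 211 in normal hearts (log2 0.68 ± 0.23, limma adjusted p = 0.147). The closest pair, diabetic 1 and normal 1, lay 819.6 against 816.7. Separation with diabetic hearts higher was found for 12.1% of all tested probe sets. Of 4 tested atrial markers Nppa, the atrial natriuretic peptide precursor, rose (log2 2.76 ± 0.18), and the median was 1.04. Myl7 (log2 0.17 ± 0.68), Myl4 (0.43 ± 0.47) and Sln (1.64 ± 0.79) did not pass, and the groups overlapped at each. None of the 3 tested macrophage markers passed in limma, and none had an unadjusted p under 0.05.

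**Figure D5:**
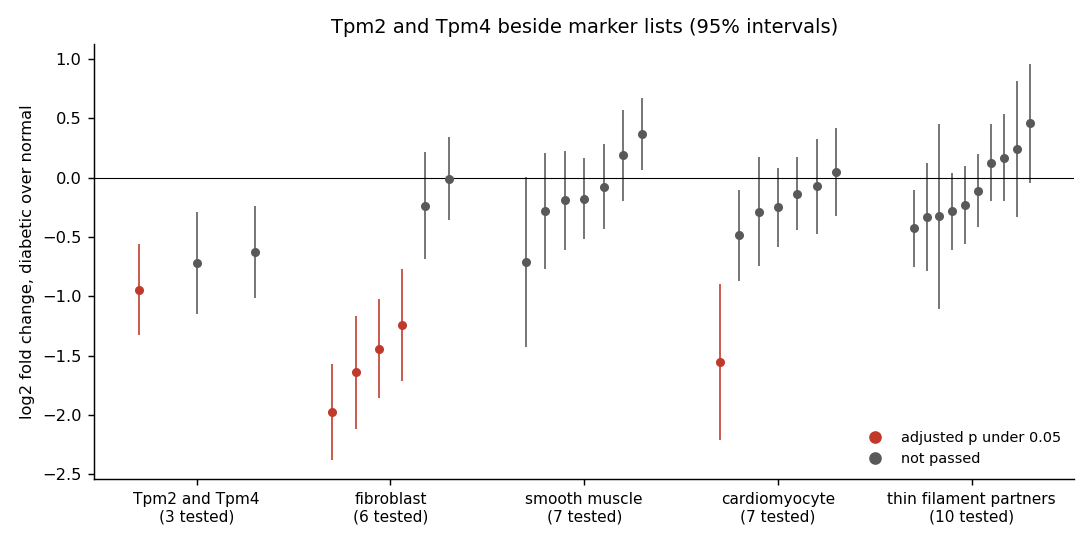
Log2 fold change, diabetic over normal, with 95% intervals from limma, for the 3 probe sets of Tpm2 and Tpm4 beside the tested genes of 4 lists at their brightest probe set; red marks an adjusted p under 0.05. Tpm2 and Tpm4 lie between -0.95 and -0.62, 4 of 6 fibroblast markers lie further down, and the smooth muscle and thin filament lists hold no red point.

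Profiles over the 6 hearts were compared with those of single-gene probe sets of other genes, by the root mean square distance of log2 signals centred on their means. Among 8098 such probe sets, the nearest to Tpm4 were Plpp7 (distance 0.070), Flna, the actin crosslinker filamin A (0.082), and Cyb5b, an outer mitochondrial membrane cytochrome b5 (0.097). Flna averaged 789 ± 34.6 in diabetic hearts and 1557 ± 243 in normal hearts. Nearest to Tpm2 were Pik3r3, a regulatory subunit of phosphoinositide 3-kinase (0.095), Ppt2 (0.097) and Mocs2, of molybdenum cofactor synthesis (0.099). Nearest to the brightest Tpm3 probe set were 6430548M08Rikl (0.054), Zfp518b (0.056) and Uri1 (0.057). These are descriptions of 6 arrays, in which any gene with the same group difference lies near.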

How the data were processed

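Signal intensities for 15923 probe sets on 6 arrays (3 diabetic, 3 normal left ventricles) were used as deposited by the authors. The software and normalization behind them are not stated in any source used here. Trimmed means (2% of probe sets left out at each end) were equal, so no further scaling was applied. Replicates were taken as separate animals, as the design text has them.

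The 57 control probe sets were left out. Genes were named from the array annotation, updated through a RefSeq gene table by gene number. Of 15866 probe sets, 12783 had 1 gene, 312 several and 2771 none named here. Values were turned into log2(intensity + 16), and probe sets with a mean log2 value above the 40th percentile were tested with limma 3.58.1 in R 4.3.3 (two-sided, group as the only term, Benjamini-Hochberg over 9519 probe sets). The number of arrays limits the precision, and no detection calls were used. Isoform ratios used exact permutation in scipy 1.17.1, and figures matplotlib 3.10.9.

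Members and lists were chosen with earlier results of these data known. All member probe sets are described, and list members are named if they passed, at most 4 per list by p. Tmod1, Dcn, Des, Tagln, Tnnt1, Pecam1, Myl7, Myl4 and Sln did not pass and were named after their values were seen. Actc1, Lmod2 and Nebl had no values and are named as absent. Nearest profiles are given for the 3 member genes with the smallest p. The code was tested on simulated data for 9519 probe sets, 200 of them changed. It found 8% of log2 changes of 0.5, 90% of changes of 1 and 100% of changes of 2 or 3, with 7 false among 156 calls. The simulated noise was normal and independent between probe sets and arrays, so these shares may be too high for the real hearts. Alternatives were other pseudocounts, scalings, filters, priors, weighted arrays, a block for the replicate number, and leaving out each array.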

Additional observations from a re-analysis of the deposited data

How the results depend on the processing

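With 3 hearts a group, calls depended on the filter and on single hearts. Of 9519 tested probe sets 274 were called, against 18 of 15866 with no filter. A filter at the 60th percentile gave 437 of 6346, and an intensity trend 527 of 9519. There were 674 calls at an adjusted p under 0.1, and 100 to 202 with each array left out. The count for troponin and tropomyosin was 1 of 19, against 0 of 27 with no filter (limma, 5 with an unadjusted p under 0.05). It was 3 of 13 with the filter at the 60th percentile (both Tpm4 probe sets and Tpm2). With the intensity trend it was 2 of 19 (both Tpm4 probe sets). It was 3 at an adjusted p under 0.1, and 0 to 1 with each array left out. No filter combined with an intensity trend, and a filter on linear means, both chosen after seeing the data, gave 1 each. With fewer arrays there is also less power. With no filter, adding the intensity trend gave 371 calls over all probe sets, against 18 without the trend. The reason for this difference was not tested.

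The brighter Tpm4 probe set, the dimmer one and Tpm2 were lower in diabetic hearts under every alternative run. Replicate numbers are shared between the groups. Deviations of same-numbered arrays correlated at 0.066, 0.014 and 0.016, within the range of differently numbered arrays, -0.084 to 0.069. No pairing was seen, but so few arrays cannot exclude one. With the replicate number as a block 183 probe sets passed, and Tpm4 kept its call (adjusted p = 0.0398).

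Some values changed sign. With array weights the Tpm3 probe sets 1371239_s_at and 1398303_s_at were at 0.012 and 0.015. With each array left out, Tnnt2 ran from -0.281 to 0.076, Tpm1 from -0.126 to 0.002 at 1370288_a_at and from -0.139 to 0.027 at 1371241_x_at, and Tpm3 from -0.905 to 0.248 at 1387918_at, -0.131 to 0.103 at 1371239_s_at, -0.176 to 0.143 at 1398303_s_at, -0.252 to 0.119 at 1376929_at and -0.225 to 0.506 at 1389846_at. Tnni1 over Tnni3 was -0.044 with the other Tnni1 probe set, against 0.468, and Tpm3 over Tpm1 reached 0.588 among the other pairs, against -0.306. The cause was not tested.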
